A study of Homo sapiens with 4 samples.

Results

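The 250 loci described here are the expressed lincRNA loci of LNCaP cells, an established prostate cancer line first grown from a metastasis in a human lymph node. A locus is one gene position in the tables of the 4 sequenced libraries. The lincRNA loci were those that at least 1 library lists under the biotype lincRNA, with the quantification status OK in all 4 libraries and an expression value of at least 1 in at least 2 of them. They were 250 of 5600 lincRNA identifiers listed in all 4 libraries, or 4.46%, and 3008 of the others stood at 0 everywhere. The members were thus chosen by their expression level, and their abundance is given only as a description.

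The purpose was to find transcripts whose levels differ under CRYM overexpression. The CRYM protein, mu-crystallin, is a cytosolic binder of thyroid hormone. Of the 4 libraries, 2 came from cells given an empty control vector for pReceiver-M72 and 2 from cells given a CRYM open reading frame clone. Both groups were at passage 22, grew in medium with 10% serum, received 2500 ng of plasmid with 12 µL of Lipofectamine and were harvested at 48 h. The transfection was transient and GFP was monitored, so each library holds RNA of whatever mixture of transfected and untransfected cells was present. In such bulk RNA, fewer cells that make a transcript and less of it per cell cannot be told apart. Samples of a group are labelled biological replicates without word of separate cultures, and the p-values then measure only the spread between these samples, which may be technical.

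Long intergenic noncoding RNAs are transcribed by RNA polymerase II, usually spliced and polyadenylated like messenger RNAs, but carry no long open reading frame. Some act as RNA, for example by binding proteins or carrying small nucleolar RNAs in their introns, and for many no function is known. They are mostly made at low levels, and several are used as prostate cancer markers because their expression follows the tissue or the androgen receptor.

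Sequences are shown for members on which the results turn and whose annotated start could be matched. Of the 250 loci, 44 had an entry under their symbol in the RefSeq promoter table (GRCh38.p14), which gives 250 bases before to 50 bases after a gene's start. In 40 of them the RefSeq start lay within 1 kb of the start in GENCODE 29, which uses the same genome. The promoters of 2 small nucleolar RNA hosts that went opposite ways, of NORAD and of LINC01873, an abundant member that rose, are printed 5′ to 3′ on the gene's strand. Capitals mark every match, on either strand, to the motifs searched. These were the TATA box as TATAAA, the CAAT box as CCAAT, the GC box as GGGCGG, the E-box as CACGTG, the ETS site as CCGGAAG, the cAMP response element as TGACGTCA and the sterol regulatory element as TCACNCCAC. The androgen response element (3 free bases between its arms) and the thyroid hormone response element of the DR4 type were searched too. The matches in the windows shown do not overlap one another.
SNHG19, chr16:2155309-2155608, minus strand: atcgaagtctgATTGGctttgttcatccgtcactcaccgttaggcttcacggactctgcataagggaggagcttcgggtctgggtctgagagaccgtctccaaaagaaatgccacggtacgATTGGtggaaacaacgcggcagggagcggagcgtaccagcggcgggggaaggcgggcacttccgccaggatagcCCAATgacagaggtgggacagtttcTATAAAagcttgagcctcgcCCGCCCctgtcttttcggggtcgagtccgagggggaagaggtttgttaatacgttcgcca
SNHG30, chr17:35567864-35568163, plus strand: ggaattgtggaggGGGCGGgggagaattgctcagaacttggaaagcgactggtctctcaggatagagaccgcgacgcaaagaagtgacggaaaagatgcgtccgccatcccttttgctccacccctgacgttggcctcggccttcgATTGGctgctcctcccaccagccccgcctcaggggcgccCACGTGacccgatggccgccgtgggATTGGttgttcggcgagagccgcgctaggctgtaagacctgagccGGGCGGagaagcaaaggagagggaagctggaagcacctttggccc
NORAD, chr20:36050911-36051210, minus strand: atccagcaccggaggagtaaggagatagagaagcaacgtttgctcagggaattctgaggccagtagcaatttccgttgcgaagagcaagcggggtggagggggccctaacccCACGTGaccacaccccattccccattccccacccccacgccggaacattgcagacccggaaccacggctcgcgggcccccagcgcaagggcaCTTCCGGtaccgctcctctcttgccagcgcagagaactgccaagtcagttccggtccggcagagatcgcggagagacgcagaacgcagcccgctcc
LINC01873, chr2:66383056-66383355, plus strand: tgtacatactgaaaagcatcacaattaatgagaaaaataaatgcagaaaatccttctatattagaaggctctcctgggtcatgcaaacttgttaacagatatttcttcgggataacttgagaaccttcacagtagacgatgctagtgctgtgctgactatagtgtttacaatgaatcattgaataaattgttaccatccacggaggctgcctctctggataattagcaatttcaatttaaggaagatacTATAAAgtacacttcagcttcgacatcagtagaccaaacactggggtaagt

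SNHG19 had a TATA box 30 bases before its start, 3 CAAT boxes and a GC box. SNHG30, another small nucleolar RNA host, had an E-box 65 bases before its start, 2 CAAT boxes and 2 GC boxes but no TATA box. NORAD had an E-box 138 bases and an ETS site 46 bases before its start. LINC01873 had a TATA box that begins 1 base before its start and no other match. Its window was 37% G and C with 4 CG dinucleotides, whereas the windows of SNHG19, SNHG30 and NORAD were 57% to 63% G and C with 23 CG dinucleotides each.

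Across the 40 matched member promoters, 62.5% held a GC box, 37.5% a CAAT box, 22.5% an E-box, 20% an ETS site and 15% a TATA box. Among all 35116 promoters of the table the shares were 45.0%, 34.6%, 7.26%, 10.3% and 11.5%. A sterol element was found in 1 member, MAPK6-DT, or 2.5% against 1.13%. The androgen, thyroid hormone and cAMP elements had no exact match in a member window, and 0.00285%, 0.0199% and 1.85% of all promoters held them. The ratio of observed to expected CG dinucleotides reached 0.6 in 75% of member promoters and 48.9% of all. Matches describe letters in these windows and say nothing of whether a factor binds.

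NORAD acts through copies of the Pumilio protein recognition sequence, so its sites are shown as read from its GENCODE 29 transcript, with every full match to TGTANATA in capitals, 10 bases on each side of the site and the position counted from the first base of the transcript. The transcript of 5339 bases held 15 of them, or 2.81 per kb. The other member transcripts held 24 in all, a density of 0.085 per kb, and of 217 members with a GENCODE transcript 19 had at least 1.
Site 1, position 761: ggaaggcctgTGTATATAatatgaaaaa
Site 3, position 1241: aatcacatttTGTAAATAcctttttgtt
Site 5, position 1451: gTGTATATAgTGTACATAaaggacagac
Site 9, position 2639: tttgctatacTGTATATAtTGTATATAt
Site 15, position 4599: ttagcctattTGTAAATAcctttgttat
Of the sites shown, 1 and 9 have T at the free position, 3 and 15 have A, and 5 has C. The line of site 5 also holds site 4 before it, and that of site 9 holds site 10 after it.

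The values are FPKM, mapped fragments scaled to transcript length and to the library's fragment total, as Cufflinks gave them. Levels of different genes can be compared on this scale because it is per length, but less well at short loci, where few fragments can give a high value. For example, the SNORD60 locus of 83 bp had 582.1 FPKM in empty vector library 1. Its deposited interval there implies 19 fragments if it spans 2 SD on each side. The lowest values of short loci showed that, relative to empty vector library 1, the read totals behind the FPKM stood at 1.15 for empty vector library 2, at 0.842 for CRYM library 1 and at 1.07 for CRYM library 2. CRYM, whose locus carries no name in the files and was taken from its place beside ANKS4B (hg19 chromosome 16, 21250195 to 21314404), had 1.17 and 0.977 FPKM with the empty vector and 65.3 and 72.5 with CRYM, 64.1-fold higher by mean FPKM (log2 difference 5.07 on the log2(FPKM + 1) scale, adjusted p = 0.00253 by limma). Of 21 markers listed for LNCaP and other cell types, 4 were named in all libraries. The luminal prostate factors SPDEF and HOXB13 were at 84.5 to 86.9 and 127.7 to 128.4 FPKM in the empty vector libraries and at 46.8 to 48.0 and 110.3 to 114.1 in the CRYM libraries. The endothelial CLDN5 was between 0.136 and 0.275 FPKM and the immune HLA-DRA between 1.56 and 2.40. In FPKM both SPDEF and HOXB13 fell (adjusted p = 0.00517 and 0.0275 by limma). If their intervals span 2 SD on each side, the fragments they imply differ less, before read totals are made equal. SPDEF had 2016 and 2054 implied fragments with the empty vector and 1712 and 1831 with CRYM. HOXB13 had 2218 and 2234 against 2170 and 2210. The part of both genes in the results on lincRNA loci was not tested.

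On the values as deposited the lincRNA loci rose more often than they fell, and with libraries scaled to the same total they fell more often. By limma, fitted on log2(FPKM + 1) over all 10091 tested loci with a Benjamini-Hochberg adjusted p under 0.05, 56 of the 250 were higher in the CRYM libraries (22.4%, against 15.7% of all tested loci) and 15 were lower (6%, against 17.7%). In all, 28.4% passed the threshold, against 33.3% of all tested loci. The median log2 difference of the lincRNA loci was 0.17, and that of all tested loci 0.01. The empty and CRYM groups did not overlap at 176 lincRNA loci, or 70.4%, against 72.2% of all tested loci.

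Because a locus could enter through the group where it was high, the same calls were counted for loci with at least 1 FPKM in all 4 libraries. There, 42 of 179 lincRNA loci were higher and 10 lower, which is 23.5% and 5.59%, against 15.4% and 19.1% of the 8746 tested loci at that level. Of 25 members that reached 1 FPKM only in the CRYM libraries 12 were called higher, and of 7 that reached it only in the empty vector libraries 5 were called lower. In other noncoding classes too, higher calls outnumbered lower ones. Of 291 antisense loci 16.2% were higher and 10.7% lower, of 400 pseudogenes 13.3% and 5.25%, and of 79 sense intronic loci 16.5% and 3.80%, with median log2 differences of 0.10, 0.14 and 0.17. Of 800 named protein-coding loci 17.4% were higher and 23.4% lower.

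These counts depend on how the libraries are scaled. With quantile normalization 14.8% of the lincRNA loci were higher, against 12.9% of all tested loci. The shares lower were 6.8% and 14.6%, and the median log2 differences 0.03 and -0.003. Scaling each library to the same total FPKM moved the median of all tested loci to -0.52 and that of the lincRNA loci to -0.25, so that the lincRNA median stayed above that of all loci while 80 members (32%) were called lower and 7 (2.8%) higher. Of all tested loci 61.996% were called lower and 2.94% higher with that scaling. The counts given for groups of lincRNA loci are on the values as deposited. Leaving out any 1 of the 4 libraries, or taking the replicate number as a block, left no call at an adjusted p under 0.05 among the 250. Without a library 1 residual degree of freedom remains, and the members with an unadjusted p under 0.05 numbered 101 with all libraries and 77 to 83 without one.

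**Figure D1:**
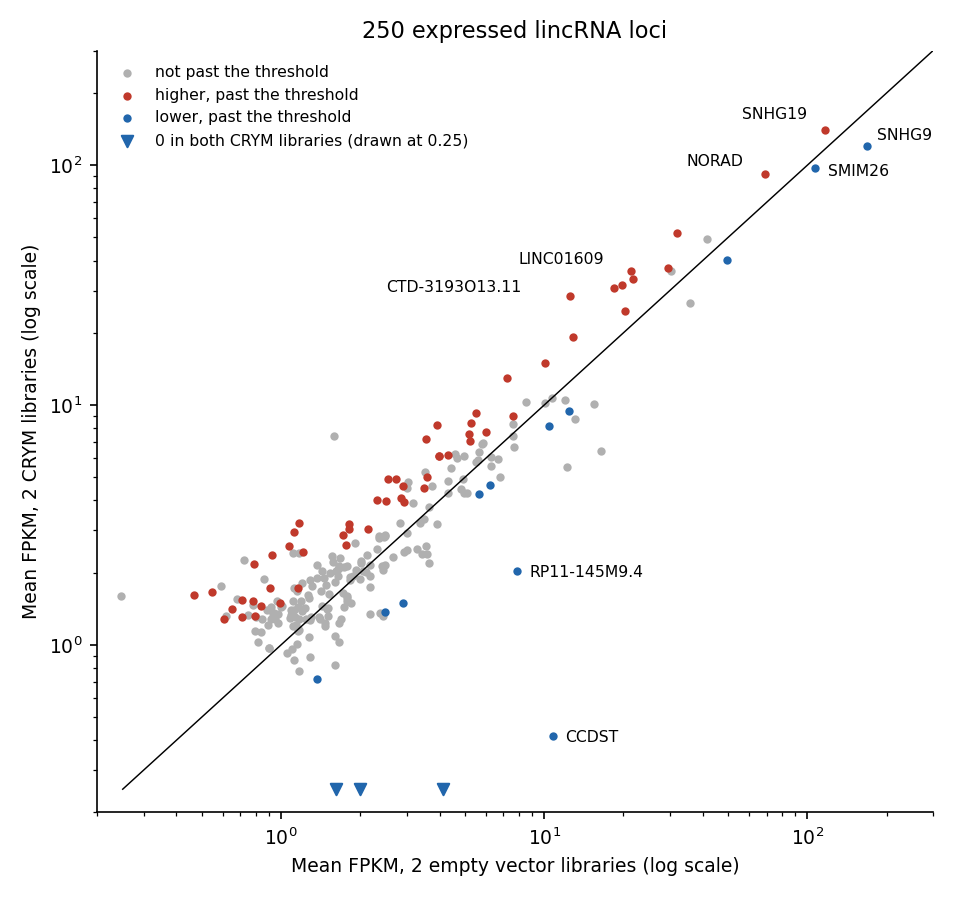
Mean FPKM of each lincRNA locus in the 2 empty vector libraries (horizontal) and the 2 CRYM libraries (vertical), both on log axes, with the line of equal means. Red and blue points are the 56 loci higher and 15 lower past the threshold, and the 3 triangles are loci at 0 in both CRYM libraries, drawn at 0.25. Most coloured points lie above the line, and CCDST and RP11-145M9.4 lie far below it. With libraries scaled to the same total, SNHG19 and NORAD would lie on the other side.

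Host transcripts of small nucleolar RNAs included the most abundant member, SNHG9, and did not all change in the same direction. These genes carry small nucleolar RNAs, guides for chemical modification of other RNAs in their introns. Of 36 hosts listed, 4 appear as lincRNA in the files and 3 were members, and all 3 passed the threshold, 2 lower and 1 higher. SNHG9 (hg19 chromosome 16, 2014960 to 2015510) had 177.5 and 158.9 FPKM with the empty vector and 115.0 and 124.4 with CRYM. Both CRYM values lay below both empty vector values, a 1.40-fold fall (log2 difference -0.49 ± 0.08 SE, adjusted p = 0.0332 by limma). With quantile normalization the adjusted p of SNHG9 was 0.070.

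SNHG30, listed as RP11-1094M14.11 (hg19 chromosome 17, 33895139 to 33901811), hosts SNORD7. Its values were 12.31 and 12.6 FPKM with the empty vector and 9.35 and 9.53 with CRYM. The replicates were close and the groups well apart, a 1.32-fold fall (log2 difference -0.37 ± 0.04, adjusted p = 0.0150 by limma). SNORD7 itself was listed at 0 in 3 libraries and at 25.0 FPKM in CRYM library 2, where the interval implies 2 fragments. Small nucleolar RNAs lack poly(A) tails and are poorly captured by a library of polyadenylated RNA.

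SNHG19, listed as RP11-304L19.5 (hg19 chromosome 16, 2204798 to 2205359), hosts SNORD60. It had 117.9 and 115.3 FPKM with the empty vector and 137.0 and 143.9 with CRYM. Both CRYM values were above both others, a 1.21-fold rise (log2 difference 0.27 ± 0.04, adjusted p = 0.0244 by limma), which turned to -0.33 when libraries were scaled to the same total. The SNORD60 locus of 83 bp lies within it and had 582.1 and 610.3 FPKM against 289.8 and 372.4, a fall (adjusted p = 0.0360 by limma) on 8 to 22 implied fragments per library. Host and guest thus differed in opposite directions as deposited, and reads from the shared bases could be assigned to either.

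Among lincRNAs with a known role in every cell, NORAD rose. NORAD, listed as LINC00657 (hg19 chromosome 20, 34633544 to 34638882), is an abundant cytoplasmic RNA that sequesters Pumilio proteins, repressors of messenger RNAs, and is needed for stable chromosome number. It had 68.4 and 70.1 FPKM with the empty vector and 93.3 and 89.7 with CRYM, a 1.32-fold rise (log2 difference 0.40 ± 0.03, adjusted p = 0.0125 by limma). The rise rested on at least 24627 implied fragments per library, and it turned to -0.20 when libraries were scaled to the same total. RMRP, the RNA of the mitochondrial RNA processing ribonuclease, had 2.46 and 0.724 FPKM with the empty vector and 0.917 and 13.97 with CRYM. CRYM library 2 alone was high, the groups overlapped and RMRP did not pass (adjusted p = 0.542 by limma). These 2 were the only members of the 22 genes listed as ubiquitous regulators.

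Of 20 names of small-protein genes once held as noncoding, 5 appear as lincRNA in the files and 2 were members, 1 lower and 1 higher. SMIM26, listed as LINC00493 (hg19 chromosome 20, 18548064 to 18550207), encodes a small integral membrane protein. Its FPKM was 107.7 and 106.6 with the empty vector and 97.8 and 97.3 with CRYM, a small fall of 1.098-fold (log2 difference -0.13 ± 0.02, adjusted p = 0.0298 by limma). With quantile normalization that difference was -0.01 (adjusted p = 0.767), and without a variance trend the adjusted p was 0.0643. SMIM10L2A, listed as LINC00086 on chromosome X, had 0.981 and 0.991 FPKM against 1.47 and 1.53. This was a 1.52-fold rise (log2 difference 0.33 ± 0.06, adjusted p = 0.0412 by limma), but the difference was -0.00062 with libraries scaled to the same total. The adjusted p was 0.134 with quantile normalization and 0.0524 with a pseudocount of 0.1.

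Another such locus was outside the list of 20 and was singled out after its values were seen. RP11-309L24.9, which GENCODE 29 holds as protein-coding under the symbol ATP6V1FNB, had 0.781 and 0.782 FPKM against 1.44 and 1.60 (adjusted p = 0.0260 by limma). Its call was lost with quantile normalization (adjusted p = 0.0587) and with libraries scaled to the same total (log2 difference 0.19, adjusted p = 0.165). RP11-309L24.9 and SMIM10L2A both reached 1 FPKM only in the CRYM libraries, so the rule that made them members favoured a rise. Of the 217 members found in GENCODE 29, 206 were still lincRNA there and 3 had become protein-coding.

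PART1, a prostate androgen-regulated transcript, was the only member of 23 prostate and androgen linked transcripts listed, of which 6 appear under the lincRNA biotype in the files. It had 1.43 and 1.49 FPKM with the empty vector and 1.20 and 1.26 with CRYM. The groups did not overlap, yet the log2 difference of -0.14 ± 0.06 did not pass (adjusted p = 0.188 by limma). The lists of microRNA hosts, X inactivation centre transcripts, and transcripts tied to proliferation or p53 held no member, but only 1 of 21, 1 of 5 and 2 of 22 of these names appear as lincRNA in the files. The list of microRNA hosts was not complete. MIRLET7DHG (log2 difference 0.12, not past) and MIR4453HG (0.39, past the threshold) are members with such names outside it. Of the 10091 tested loci 7593 carry no name, so a name that is missing does not show that the transcript was not expressed.

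**Figure D2:**
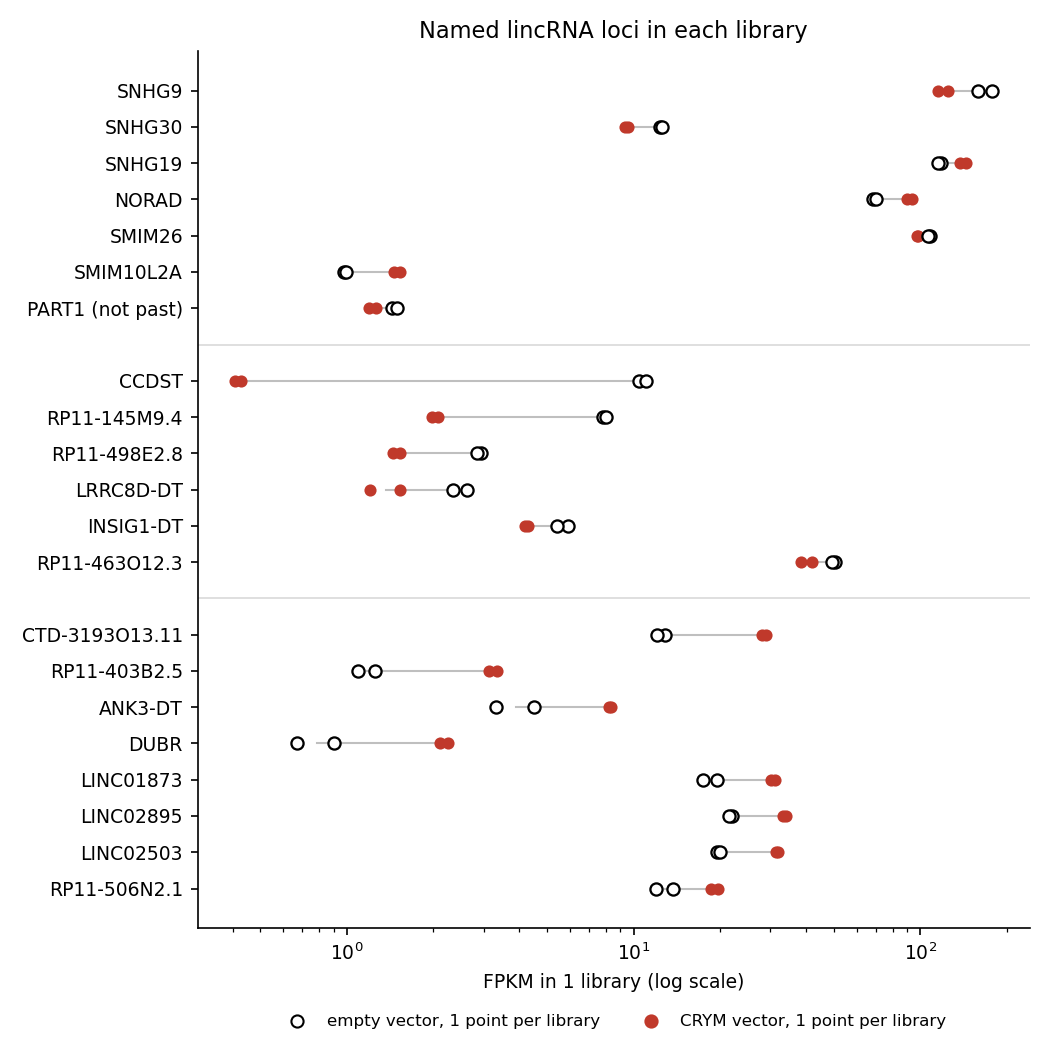
FPKM of 21 named lincRNA loci in each library on a log axis, with open points for the 2 empty vector libraries, red points for the 2 CRYM libraries and a grey line between group means. The top block holds loci with a known role, the middle block falls and the bottom block rises. The points of a group lie close together, and for every locus shown the groups are separate. The groups were separate at all 71 loci past the threshold and at 70.4% of the 250. SNHG19, NORAD, SMIM10L2A and RP11-506N2.1 change direction when libraries are scaled to the same total.

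The largest difference among the 250 on the log2(FPKM + 1) scale was a fall. With a pseudocount of 0.1 it was second to CTC-429P9.2, which was listed at 0 with CRYM. CCDST, listed as RP11-107M16.2 (hg19 chromosome 1, 152178334 to 152179533), is a lincRNA named for its suppression of the RNA helicase DHX9 in cervical cancer cells. It had 10.5 and 11.1 FPKM with the empty vector and 0.427 and 0.409 with CRYM. That is 25.8-fold lower (log2 difference -3.05 ± 0.06, adjusted p = 0.00253 by limma), and the intervals imply 142 and 159 fragments with the empty vector but 5 and 6 with CRYM. CCDST reached 1 FPKM only in the empty vector libraries, so the rule favoured a fall. RefSeq places the start of CCDST 16555 bp from the start of this identifier in GENCODE 29, so no promoter is shown for it. RP11-145M9.4 (hg19 chromosome 3, 179113877 to 179115965), with no known function, followed with 7.80 and 8.02 FPKM against 1.98 and 2.08. Its fall was 3.89-fold (log2 difference -1.55 ± 0.05, adjusted p = 0.0048 by limma) on at least 186 implied fragments per library. Brought to equal read totals, these stood with CRYM at 0.336 of the empty vector level, a smaller fall. CCDST and RP11-145M9.4 both remained past the threshold without a filter on low values and under each scaling tried.

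A further 4 falls, of 1.24-fold to 1.94-fold, were at loci of unknown function. A lincRNA locus on hg19 chromosome 9, 125093146 to 125093622, had 2.94 and 2.86 FPKM against 1.54 and 1.45. RP3-483K16.4 on chromosome 6 had 1.30 and 1.44 against 0.804 and 0.635. It lost its call with a pseudocount of 0.1 (adjusted p = 0.0580 by limma). RP3-483K16.4 reached 1 FPKM only in the empty vector libraries, so the rule favoured a fall. RP13-516M14.1 on chromosome 17 had 10.9 and 9.95 against 8.02 and 8.29. The abundant RP11-463O12.3 on chromosome 12 had 50.3 and 49.1 FPKM against 38.2 and 41.9 (adjusted p = 0.0421 by limma), and lost its call with quantile normalization (adjusted p = 0.0605). In all 4 the groups were separate, which was a condition of their choice.

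Divergent transcripts start beside a protein-coding gene and run away from it, and 25 members carry such a current symbol, ending in DT. This group was formed after values were seen. In it 6 rose (24%), 3 fell (12%) and 16 did not pass, with a median log2 difference of 0.04. Of all 250 members 22.4% rose and 6% fell, and of all tested loci 15.7% and 17.7%. LRRC8D-DT, beside a subunit gene of the volume-regulated anion channel, had 2.35 and 2.62 FPKM with the empty vector and 1.21 and 1.53 with CRYM (adjusted p = 0.0426 by limma). It lies within a longer unnamed locus that also fell, from 46.7 and 47.9 FPKM to 26.6 and 25.9. Its reads could in part be those of the longer locus, since no source used here says whether the quantification used the strand.

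YTHDF3-DT, beside the gene of a reader of methylated adenosine, had 6.50 and 5.94 FPKM against 4.44 and 4.85 (adjusted p = 0.0483 by limma). INSIG1-DT, listed as AC144652.1 beside INSIG1, which holds the sterol sensor of cholesterol synthesis in the endoplasmic reticulum, had 5.91 and 5.40 against 4.19 and 4.29 (adjusted p = 0.0378 by limma). Both fell by about the same factor, 1.34-fold and 1.33-fold.

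The divergent transcripts that rose were led by ANK3-DT, listed as RP11-131N11.4 beside the gene of ankyrin-G. It had 3.33 and 4.48 FPKM with the empty vector and 8.35 and 8.18 with CRYM, a 2.12-fold rise (log2 difference 0.93 ± 0.14, adjusted p = 0.0296 by limma). VPS13B-DT had 3.997 and 3.12 FPKM against 6.97 and 7.44 and holds 2 shorter loci that also rose. ST3GAL1-DT, beside a sialyltransferase gene, had 7.19 and 7.29 FPKM against 13.6 and 12.31. CD2AP-DT had 6.06 and 4.94 against 9.86 and 8.62. BAIAP2-DT, with 5.11 and 5.35 against 6.99 and 7.17, rose as deposited but had a log2 difference of -0.15 with libraries scaled to the same total. With that scaling the others named also lost their calls, with 0.42 for ANK3-DT (adjusted p = 0.115 by limma), 0.35 for VPS13B-DT (0.0738), 0.21 for ST3GAL1-DT (0.0673) and 0.13 for CD2AP-DT (0.338). CD2AP-DT lost its call with quantile normalization as well (adjusted p = 0.0593 by limma). DCTN6-DT, listed as RP11-51J9.5, was among the most even members with 10.2, 10.0, 9.93 and 10.4 FPKM in the order empty vector 1 and 2, CRYM 1 and 2. AC004069.2 was as even between groups, at 9.68 and 11.8 against 10.8 and 10.5.

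Among rises past the threshold, the largest on the log2(FPKM + 1) scale was that of CTD-3193O13.11, a locus of 736 bp with no known function (hg19 chromosome 19, 7935447 to 7936182). It had 12.9 and 12.0 FPKM with the empty vector and 28.0 and 29.02 with CRYM. The rise was 2.29-fold (log2 difference 1.13 ± 0.05, adjusted p = 0.0061 by limma). At least 705 fragments were implied per library. Brought to equal read totals, these were 1.60-fold higher with CRYM, less than the rise in FPKM. The log2 difference of CTD-3193O13.11 was 0.56 with libraries scaled to the same total. With a pseudocount of 0.1 its log2 difference of 1.19 was smaller than the 1.61 of CTA-150C2.13, a locus at a lower level. Its nearest named protein-coding neighbour, CTXN1, had 50.1 and 42.6 FPKM against 49.7 and 45.5 and did not pass (adjusted p = 0.809 by limma).

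Rises of 2.41-fold to 3.45-fold were measured at lower levels. RP11-403B2.5 on chromosome 15 had 1.25 and 1.09 FPKM against 3.34 and 3.12. XXbac-B33L19.4 on chromosome 22 had 1.13 and 1.11 against 2.87 and 3.03. DUBR, listed as LINC00883 and known from muscle differentiation, had 0.904 and 0.669 against 2.11 and 2.25. In these 3 the groups were far apart compared with the replicates. RP11-394I13.2 had 0.985 and 1.16 FPKM against 2.34 and 2.82. AC003005.2 had 0.780 and 1.06 against 2.02 and 2.72. CTA-150C2.13 had 0.570 and 0.361 against 1.80 and 1.41, and its intervals imply as few as 13 fragments in a library. DUBR and CTA-150C2.13 reached 1 FPKM only in the CRYM libraries, so the rule that made them members favoured a rise. AC003005.2 and CTA-150C2.13 lost their calls with quantile normalization (adjusted p = 0.062 and 0.114 by limma), and RP11-394I13.2 and AC003005.2 with libraries scaled to the same total (adjusted p = 0.0654 and 0.107).

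SERPINB9P1, listed as RP11-420G6.4, is a pseudogene of a granzyme B inhibitor gene. It had 0.481 and 0.611 FPKM against 1.75 and 1.59, a 3.05-fold rise (adjusted p = 0.0179 by limma). SERPINB9P1 too reached 1 FPKM only in the CRYM libraries, so the rule favoured a rise. The protein-coding SERPINB6, 66752 bp away, fell from 129.6 and 135.9 FPKM to 104.6 and 106.8 (adjusted p = 0.0176 by limma). Across the 38 members with a named protein-coding locus tested within 100 kb, the log2 differences had the same sign in 18, or 47.4%. Among other noncoding loci the same sign was found in 105 of 217, or 48.4%.

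The next 6 loci, abundant and without known function, were picked after values were seen because they rose, apart from LINC01609, which was among the 12 largest rises. LINC01609, listed as RP11-946L20.4, had 22.5 and 20.4 FPKM with the empty vector and 36.7 and 36.0 with CRYM, a 1.69-fold rise (log2 difference 0.74 ± 0.06, adjusted p = 0.0114 by limma). LINC01873, listed as AC092669.3 (hg19 chromosome 2, 66610438 to 66619582) and the gene whose promoter above is poor in G and C, had 19.6 and 17.4 FPKM against 31.2 and 30.1 (adjusted p = 0.0165 by limma). LINC02895, listed as RP11-346D14.1, had 22.0 and 21.5 FPKM against 34.1 and 33.1. All 3 had CRYM values well above both empty vector values. Brought to equal read totals, their implied fragments were 1.57-fold, 1.66-fold and 1.26-fold higher with CRYM, in the order named. For LINC02895 this was less than the rise in FPKM. LINC02503, listed as RP11-703G6.1, had 19.5 and 20.0 FPKM against 31.4 and 31.8. RP11-259O2.3 had 33.4 and 30.4 against 52.7 and 51.7, and RP11-506N2.1 had 13.7 and 12.0 against 19.7 and 18.7. With libraries scaled to the same total, the log2 differences of LINC01609, LINC01873, LINC02895, LINC02503 and RP11-259O2.3 were 0.019 to 0.15 and that of RP11-506N2.1 was -0.024, and none of the 6 passed. The lincRNA PWAR6, of the Prader-Willi and Angelman imprinted region, had 7.46 and 7.70 FPKM against 8.83 and 9.14, and its log2 difference of 0.22 turned to -0.32 with that scaling.

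Several of these loci span long stretches of genome. Of the 13 members that span 50 kb or more, 6 rose and none fell: DUBR, LINC01609, LINC02503, LINC02895, RP11-506N2.1 and RP11-10O22.1. Of all 3169 tested loci of that span 18.8% rose and 15.7% fell. RP11-10O22.1 spans 205754 bp on chromosome 3 and had 0.812 and 0.775 FPKM against 1.24 and 1.40, and lost its call with a pseudocount of 0.1 (adjusted p = 0.0581 by limma). DUBR and RP11-10O22.1 reached 1 FPKM only in the CRYM libraries, so the rule favoured their rise. The other 7 of the 13 did not pass, PART1 among them.

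At 10 to 50 kb, 9 of 26 members rose and 1 fell, where 15.3% of all tested loci rose and 21.6% fell. At 3 to 10 kb, 16 of 51 rose and 1 fell, against 14.7% and 24.0%. Among 123 members of 0.5 to 3 kb, 24 rose and 12 fell, or 19.5% and 9.76%, against 16.1% and 15.3%. Among 37 under 0.5 kb 1 rose and 1 fell, or 2.70% each, against 8.57% and 4.29%. The shares that rose thus ran from 2.70% under 0.5 kb to 46.2% at 50 kb and over, where all tested loci ran from 8.57% to 18.8%. With only the loci at 1 FPKM or more in all 4 libraries, 4 of 8 lincRNA loci of the longest span and 1 of 21 of the shortest rose. The spans were read as classes set after values were seen, so these counts are a description.

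**Figure D3:**
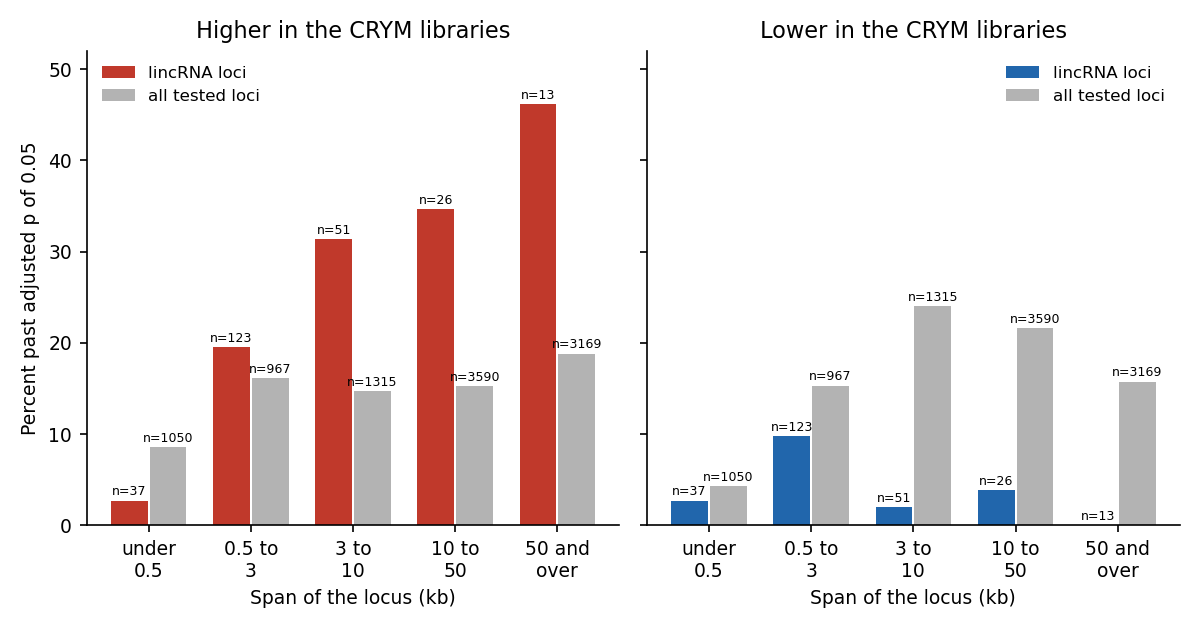
Percent of loci higher (left) and lower (right) past an adjusted p of 0.05, by span of the locus in kb, for lincRNA loci (coloured bars) and all tested loci (grey bars), with the number of loci above each bar. The share of lincRNA loci that rose is 2.70% under 0.5 kb and 46.2% at 50 kb and over. These are calls on the values as deposited, and with libraries scaled to the same total most lincRNA calls are lower.

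The share called also differed with abundance. Of 26 members with a mean of at least 10 FPKM, 13 rose and 4 fell, where all loci of that level gave 13.5% and 25.5%. Of 95 members at 2 to 10 FPKM 27 rose and 7 fell, which is 28.4% and 7.37%, against 19.5% and 10.0% of all loci. Of 129 members under 2 FPKM 16 rose and 4 fell. These shares of 12.4% and 3.10% were both below the 15.0% and 5.08% of all loci at that level. The 6 highest members by mean were SNHG9, SNHG19, SMIM26, NORAD, RP11-463O12.3 and CTD-2302E22.2. Of these CTD-2302E22.2, a locus of 375 bp on chromosome 14, had 42.9 and 40.4 FPKM against 51.3 and 47.1 and did not pass (adjusted p = 0.0820 by limma). The mean level ran from 0.806 to 144 FPKM with a median of 1.96, so most members were made at low levels.

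At the edge of the rule, RP11-849F2.9 entered with 1.01 and 1.32 FPKM in the empty vector libraries and 0.769 and 0.785 with CRYM. CTD-2231E14.5 stayed out with 0.989 and 1.19 against 0.547 and 0.738. The members lay on 23 chromosomes. By exons of the longest GENCODE transcript, 23 of 101 single-exon members rose, 22 of 78 with 2 exons and 11 of 38 with 3 or more, so the shares were 22.8%, 28.2% and 28.9%, against 13.9%, 17.9% and 15.0% of the tested loci with an identifier. The falls were 6, 6 and 1, or 5.94%, 7.69% and 2.63%, against 7.27%, 13.8% and 23.2%.

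MIR4453HG is listed as MIR4453 after the microRNA in it, and its case shows a limit of the quantification. The mature microRNA, with the seed (bases 2 to 8) in capitals, is from RefSeq (GRCh38.p14, chr4:152536432-152536451, plus strand).
hsa-miR-4453: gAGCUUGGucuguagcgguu
The locus had 3.55 and 3.60 FPKM with the empty vector and 5.23 and 4.79 with CRYM, which passed (adjusted p = 0.0293 by limma). The deposited interval reached from 0 to 36.4 in empty vector library 1 and from 0 to 45.8 in CRYM library 1, so these intervals do not separate the groups. The log2 difference of MIR4453HG was -0.10 with libraries scaled to the same total, and the values are those of the host locus, not of the microRNA.

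In general the deposited intervals were disjoint between groups at 58 of the 71 lincRNA loci past the threshold. Among all 250 members they were disjoint at 61. Each interval is of 1 library and leaves out the spread between replicates. If the intervals span 2 SD on each side, fragments can be implied from them and the FPKM. The same FPKM gave the calls, so the implied fragments are no independent support. Brought to equal read totals, these lay on the side of the call at 70 of the 71. The exception was MIR4453HG, with 0 implied in every library at FPKM above 0, so implied fragments need not be read counts. Side alone says nothing of size: at SMIM26 the ratio of CRYM to empty vector was 0.9985, almost no difference. Of the 71, 2 had under 10 implied fragments in every library. The lowest implied number over the 4 libraries had a median of 64.5 per member. Replicates of a group differed by a median of 0.115 on the log2(FPKM + 1) scale with the empty vector and 0.106 with CRYM.

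Values of 0 were listed for 9 members in at least 1 library, and 3 of these were at 0 in both CRYM libraries. CTC-429P9.2 had 4.29 and 3.97 FPKM with the empty vector and was listed at 0 with CRYM. It lies within an unnamed locus of 181386 bp that had 65.0 and 64.7 FPKM against 66.7 and 68.2. CTD-2134A5.3 had 2.16 and 1.82 FPKM on 1 implied fragment each and was at 0 with CRYM. CTD-3110H11.1 had 1.70 and 1.53 and was at 0 with CRYM, where an unnamed locus over it had 10.9 and 11.4 FPKM against 7.77 and 4.98. All 3 are among the 15 loci called lower (adjusted p = 0.0045, 0.0081 and 0.0077 by limma, in the order named). No fold is given for these 3, since an exact 0 can stand for reads given to an overlapping locus.

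In RP11-1100L3.8, CTD-2270L9.4 and RP11-196G18.24 the 0 was in CRYM library 2 alone. RP11-196G18.24 had 15.8 and 15.1 FPKM with the empty vector and 20.1 in CRYM library 1, and in CRYM library 2 an unnamed locus of 42410 bp over the same place had 56.0. RP11-1100L3.8 had 19.2 and 13.7, then 12.9 and 0. CTD-2270L9.4 had 12.7 and 11.7, then 11.0 and 0. None of these 3 passed, and which locus received the reads was not tested. In all, 37 members overlap another tested locus, in 40 pairs of which 31 involve an unnamed locus. Of the 213 members that overlap none, 50 rose and 13 fell.

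**Figure D4:**
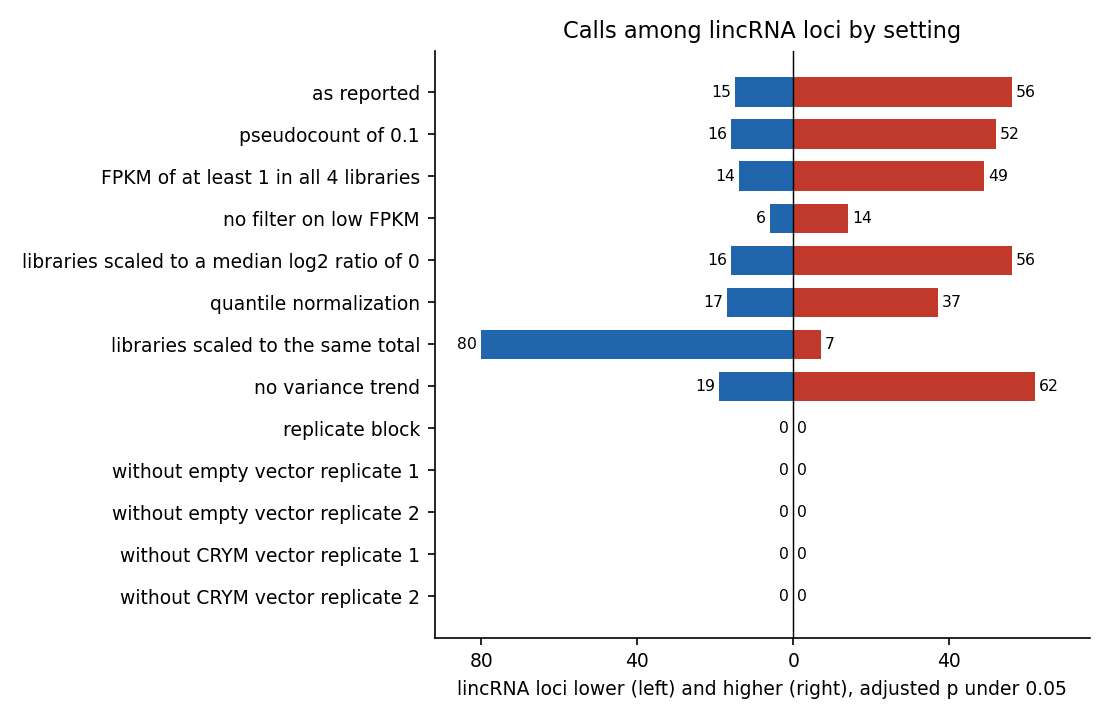
Number of lincRNA loci lower (blue, left) and higher (red, right) past an adjusted p of 0.05 under each setting, from 15 and 56 as reported. Rises outnumber falls in 7 of the settings drawn, 7 rises face 80 falls when libraries are scaled to the same total, and no locus passes with the replicate block or without any 1 library.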

How the data were processed

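Per the labels' protocols, a stranded mRNA kit and single reads of 50 bp were used. The submitters' processing notes name Cuffdiff, Cufflinks 2.2.1, Bowtie2 2.2.9 and TopHat2 2.1.1 with hg19 and GRCh37, without stated roles. The deposited values are FPKM, each with an interval and a status, per the file headers. There is a table for each library, and libraries were joined by identical position: 52318 loci were in all 4, of which 37712 carry an identifier. Rows of 1 identifier were summed, which touched 1 member. Starts are counted from 1, and printed loci are on hg19. FPKM holds no absolute depth. Short loci (60, 61, 62 and 63 bp) had values that were, in 100% of cases above 0, whole multiples within 0.1 of a step, and its size gave the relative read totals.

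Differences were tested in R 4.3.3 with limma 3.58.1 on log2(FPKM + 1), using empirical Bayes moderation and a trend, two-sided, Benjamini-Hochberg adjusted over 10091 loci that had status OK in all 4 libraries and reached an FPKM of 1 in 2 or more. Of these 2498 carry an identifier. Log2 differences understate the change of low loci, and folds compare mean FPKM values. Simulated data for this comparison held all 10091 loci. Of changes of 0.5 on the log2 scale 46% were recovered, of 1 54%, of 2 82% and of 3 76%, with 5 false calls. The changes were few, where 33.3% of loci passed in the data. They were placed only at loci with a mean above 2 on the log2(FPKM + 1) scale. Most members lie lower, with a median of 1.96 FPKM, so these rates do not cover them.

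Named members were the 12 largest rises and 12 largest falls past the threshold with separate groups and no 0, the 6 highest by mean, up to 4 past the threshold per list (or the 2 highest where none passed), up to 3 at 0 in a group and the 2 highest with a log2 difference under 0.05 in size. Others, such as abundant rises, long loci and divergent transcripts, were added after values were seen. The members, the lists and the rule were chosen with earlier results of these data known. Identifiers were matched to the gene table (211 of 250) and to GENCODE 29 (217 of 250). The values of 1 member are not reported here. Alternatives covered pseudocount, filter, scaling, variance trend, the replicate number as a block and each library left out. Python 3.11.15, numpy 2.4.6, pandas 2.3.3 and matplotlib 3.10.9 were used.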

Additional observations from a re-analysis of the deposited data

How the results depend on the processing

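With 56 lincRNA loci higher and 15 lower as reported, the counts were 52 and 16 with a pseudocount of 0.1, 49 and 14 of 179 members in a new fit over only the 8746 loci with at least 1 FPKM in all 4 libraries, 56 and 16 with a median log2 ratio of 0, and 62 and 19 without a variance trend. Among the 208 members that overlap no tested locus and are above 0 everywhere, a subset chosen after seeing the data, the counts were 50 and 11. The same subset of all tested loci was not counted. Without a filter, over 26476 loci above 0 in at least 1 library, 14 were higher and 6 lower, with more loci tested. These were 5.6% and 2.4% of the members, against 2.98% and 4.09% of all loci in that fit. Loci at 0 in all libraries have no variance and were not tested. With quantile normalization 37 were higher and 17 lower, or 14.8% and 6.8%, against 12.9% and 14.6% of all tested loci. With libraries scaled to the same total, 7 were higher and 80 lower, and of the 71 calls 22 kept call and direction and 19 changed sign. The total FPKM per library was 8349133 and 7917747 with the empty vector and 12658203 and 12091877 with CRYM, which fixes that shift, and what raised the totals was not tested. Among the loci named, the log2 differences that turned there were -0.33 for RP11-304L19.5, -0.20 for LINC00657, -0.000624 for LINC00086, -0.32 for PWAR6, -0.15 for BAIAP2-AS1, -0.024 for RP11-506N2.1 and -0.10 for MIR4453.

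Without any 1 library the counts were 0 to 0 higher and 0 to 0 lower by limma, and the smallest adjusted p among members was 0.0550 to 0.0713, while 77 to 83 members had an unadjusted p under 0.05. The lone sample of a group is then assumed to vary like the other group, with 1 residual degree of freedom. With the replicate number as a block, 0 members were higher and 0 lower, and 83 had an unadjusted p under 0.05. The labels do not say that a number marks a shared culture, and the deviations of same-numbered samples correlated at 0.036 over the tested loci, so the numbers were not taken as pairs. Apart from the totals, the precision is limited by 2 libraries per group and by low implied fragment numbers at members near 1 FPKM.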
